A study of Mus musculus with 32 samples.

Results

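Ikaros ChIP-seq peaks at 30 min of induction were compared with those at 0 h in B3, a mouse lymphoma line that resembles pre-B cells. The cells of both groups carried a retroviral HA-tagged Ikaros fused to ERt2, the ligand-binding part of an oestrogen receptor, so that the protein moves into the nucleus when 4-hydroxytamoxifen (4-OHT) is added. The 30 min group had received 500 nM 4-OHT, the 0 h group had received none, and each held 2 libraries immunoprecipitated through the HA tag. The 4 samples belong to a series of 32, in which CHD4 and the histone mark H3K27ac were profiled in the same way at 0 h, 30 min, 1 h and 2 h, also with 2 libraries each. The transduced Ikaros was made in every group, the cells had been sorted for GFP as a population, and pre-B cells also carry their own Ikaros family proteins, which the HA antibody does not see. The labels do not say whether the 2 replicates came from separate cultures, so the p-values below measure only the spread between these libraries. The 4 lists were merged wherever peaks overlapped or touched, which gave 14680 regions. Regions called in both 30 min lists and in neither 0 h list are termed gained (502 regions), those called in both 0 h lists and in neither 30 min list are termed lost (1385), and those called in all 4 lists are termed kept (2546). These classes made up 3.42%, 9.43% and 17.3% of the merged regions, respectively, and the class sizes are what the rule produced, not a test.

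Ikaros, encoded by Ikzf1, is a zinc finger transcription factor required for lymphocyte development, and its DNA contacts centre on a GGAA or GGGA core. It is known to associate with the nucleosome remodelling and deacetylase complex NuRD, whose ATPase in lymphocytes is chiefly CHD4, and with pericentromeric heterochromatin. H3K27ac marks active promoters and enhancers and is removed by deacetylases such as those of NuRD. In pre-B cells, Ikaros is known to restrain pre-B cell receptor genes and proliferation. H3K27ac peaks within 1 kb of a transcription start site (TSS) were found at 11 to 12 of 12 pre-B marker genes over the 8 H3K27ac libraries. They were found at 1 of 8 T cell, 0 to 1 of 7 myeloid, 2 of 5 erythroid and 0 of 5 fibroblast markers.

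The sequences at the summits of the highest ranked regions of each class are shown so that the core words counted in later paragraphs can be seen in place. They are single top regions, whereas the class means at 30 min differed by -0.489 words per 100 bp (gained minus kept, above flanks). The kept region of rank 3 lies in a UTR and its sequence is not printed. Each run is the plus strand of GRCm38 (the build mm10) within 50 bp of the summit of the peak with the highest fold. It is in lower case with every core word in capitals, that is every GGAA or GGGA and, on the other strand, every TTCC or TCCC. The 6 gained runs held 1 to 4 core words each.
Gained, intron of Pip4k2b, chr11:97728540-97728640: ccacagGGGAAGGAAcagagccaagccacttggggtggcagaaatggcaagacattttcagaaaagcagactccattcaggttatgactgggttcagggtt
Gained, intron of Igsf5 near Pcp4, chr16:96459185-96459285: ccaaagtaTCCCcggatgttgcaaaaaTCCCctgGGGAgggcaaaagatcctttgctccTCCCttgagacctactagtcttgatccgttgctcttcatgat
Gained, intron of Dnm3, chr1:162044243-162044343: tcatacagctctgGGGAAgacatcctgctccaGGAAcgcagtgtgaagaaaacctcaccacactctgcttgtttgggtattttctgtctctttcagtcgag
Gained, intergenic near Bcat1, chr6:145090328-145090428: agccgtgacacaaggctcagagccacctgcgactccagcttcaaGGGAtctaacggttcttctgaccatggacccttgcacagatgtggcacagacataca
Gained, intron of D730003K21Rik, chr9:116338339-116338439: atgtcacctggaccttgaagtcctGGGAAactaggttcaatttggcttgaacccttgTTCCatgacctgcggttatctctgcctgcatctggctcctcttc
Gained, intron of Endou, chr15:97721415-97721515: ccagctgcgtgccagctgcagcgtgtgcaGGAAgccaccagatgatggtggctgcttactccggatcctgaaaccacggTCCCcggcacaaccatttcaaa

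The 3 lost runs held 6 to 9 core words each.
Lost, intergenic, nearest TSS Tnfrsf8, chr4:145367454-145367554: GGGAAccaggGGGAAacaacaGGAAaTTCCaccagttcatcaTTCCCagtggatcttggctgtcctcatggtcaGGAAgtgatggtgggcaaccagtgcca
Lost, intron of Colgalt2, chr1:152461953-152462053: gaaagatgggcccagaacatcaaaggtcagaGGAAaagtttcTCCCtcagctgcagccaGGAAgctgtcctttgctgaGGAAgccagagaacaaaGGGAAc
Lost, intergenic near Psap, chr10:60273510-60273610: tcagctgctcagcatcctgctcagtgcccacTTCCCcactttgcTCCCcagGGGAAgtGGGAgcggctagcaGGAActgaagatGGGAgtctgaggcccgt

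The 3 kept runs held 5 to 12 core words each, the most in a short tandem array inside Snx29.
Kept, intron of Snx29, chr16:11686460-11686560: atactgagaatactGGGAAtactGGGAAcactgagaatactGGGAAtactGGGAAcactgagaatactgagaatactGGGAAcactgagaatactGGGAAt
Kept, intergenic near Dusp2, chr2:127335321-127335421: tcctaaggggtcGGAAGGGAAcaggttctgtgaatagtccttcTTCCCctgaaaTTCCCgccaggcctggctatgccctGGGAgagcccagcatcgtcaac
Kept, intron of Siae, chr9:37568187-37568287: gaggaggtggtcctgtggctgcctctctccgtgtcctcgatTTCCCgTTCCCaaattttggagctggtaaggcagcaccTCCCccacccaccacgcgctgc

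The number of Ikaros peaks did not separate the time points. The 0 h lists held 7822 and 9527 peaks (8674.5 ± 1205.62, SD, n = 2) and the 30 min lists held 9181 and 5373 (7277.0 ± 2692.66, SD, n = 2). The groups overlapped, and an exact two-sided permutation test gave p = 0.667, where 2 libraries against 2 cannot give a p below 0.333. Without the second 30 min library, the difference (30 min minus 0 h) turned from -1397.5 to 506.5 peaks. The second 30 min library was also the shallowest, with a coverage of 1.98 fragments per base recovered from its p-values, against 2.54 in the first 30 min library and 3.13 to 3.59 in the 0 h libraries. Both 0 h libraries were thus deeper than both 30 min libraries, and depth and time cannot be told apart in the class sizes.

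Agreement between replicates was partial. Of the peaks in the first and second 0 h lists, 76.7% and 62.2% overlapped a peak of the other 0 h list. Of the peaks in the first and second 30 min lists, 41.5% and 71.6% overlapped a peak of the other 30 min list. Exchanging the roles of time and replicate gave a control split: 509 regions were called in both first replicates and neither second replicate, and 229 the other way round. The crossed splits held 738 regions (second 0 h and first 30 min library only) and 68 regions (first 0 h and second 30 min library only). The 502 gained regions thus lay within the range of 68 to 738 that these splits gave, whereas the 1385 lost regions lay above all 4 of them. The lost class was larger than the gained class, and 3258 of the 3760 regions called in both 30 min lists were also called in at least 1 of the 0 h lists.

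**Figure D1:**
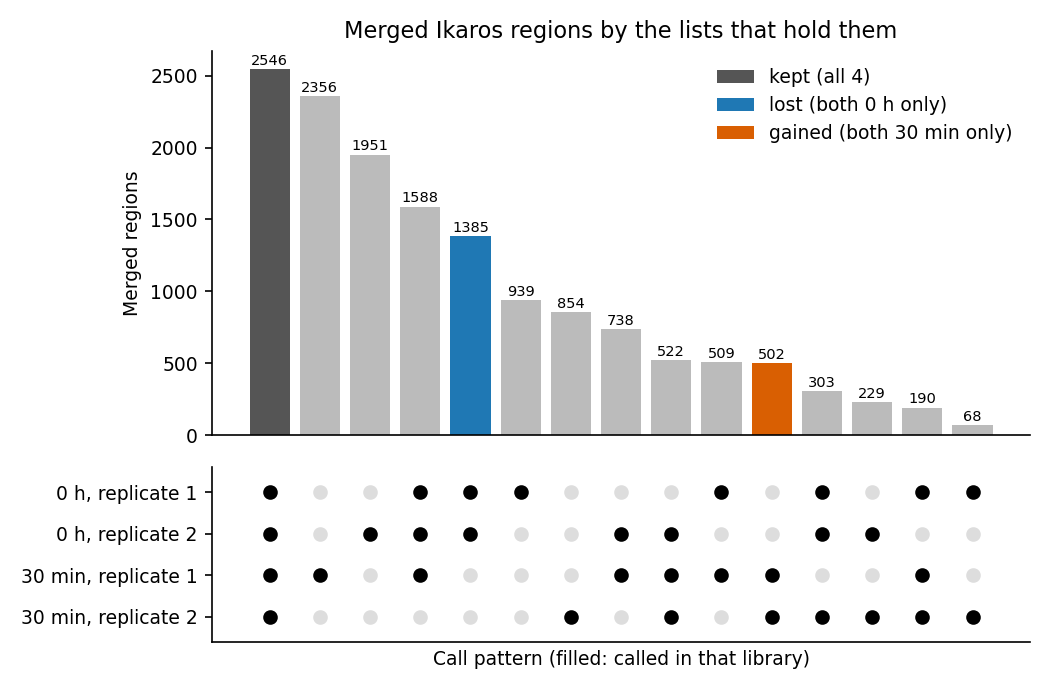
Number of merged Ikaros regions (upper panel, y axis) for each of the 15 combinations of the 4 lists (lower panel, a filled dot for each list that holds the region). The largest bar is the 2546 kept regions, the lost regions number 1385 and the gained regions (502) lie beside the 509 regions called in both first replicates only.

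The gained regions were of middling height in the 30 min lists. Fold is the pileup at a summit over the background estimated from the input, and it was ranked within each list to take out the depth of the library. Gained peaks had a median fold of 4.52 in the first and 4.47 in the second 30 min library, at the 45.4th and 42.1st percentiles. Kept peaks had medians of 5.87 and 5.03 in those libraries, at percentiles 75.2 and 59.7. In the 0 h libraries, kept peaks lay at percentiles 66.5 and 70.8, and lost peaks at 49.4 and 58.0, with median folds of 4.74 and 5.63. Among gained peaks, 2.96% and 3.96% were above the 90th percentile of their list, against 25.9% and 16.4% of kept peaks, and among lost peaks 6.68% and 9.42% were. The raw folds are not on 1 scale across times, since kept peaks reached 43.7 and 45.9 in the 0 h libraries and 22.9 and 18.1 in the 30 min libraries. Since the classes were drawn from these same lists, the ranks describe them and were not tested.

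**Figure D2:**
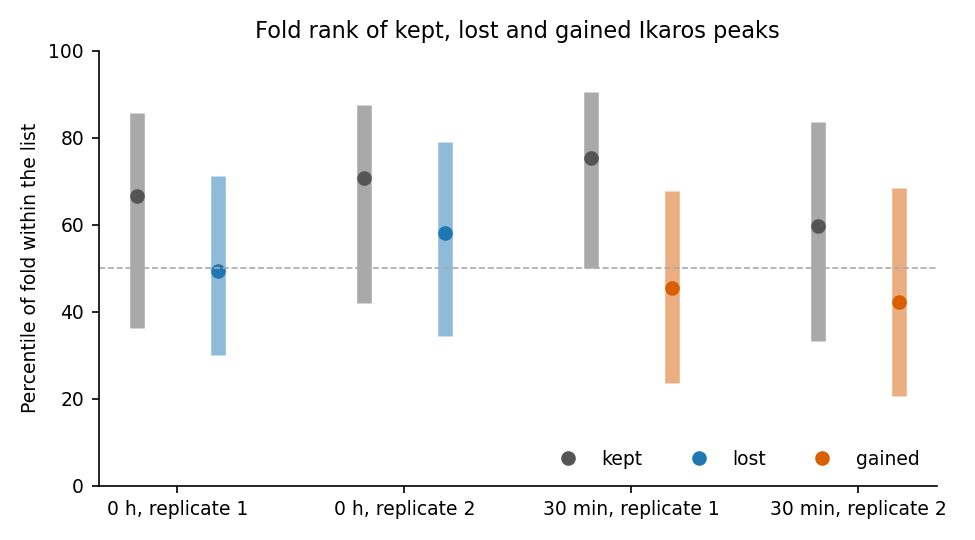
Percentile of fold within each Ikaros list (y axis) for peaks in kept, lost and gained regions in the 4 libraries (x axis), with dots at the median and bars from the first to the third quartile. Kept peaks have the highest median in every library, and gained peaks lie below the middle of both 30 min lists at 45.4 and 42.1.

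Merged regions were 613.5 bp wide at the median when gained, 496 bp when lost and 1022 bp when kept, and a kept region joins peaks of 4 lists where the others join 2. A promoter was defined as a region within 1 kb of any annotated TSS. Of the gained regions 39.4% were at promoters (198 of 502, Wilson 95% interval 35.3 to 43.8%), of the lost regions 36.6% (507 of 1385, 34.1 to 39.2%) and of the kept regions 47.6% (1212 of 2546, 45.7 to 49.5%). The promoter share was thus 8.16 percentage points lower in gained and 11.0 lower in lost than in kept regions. Both differences rested on single libraries. Without the second 30 min library the gained regions exceeded the kept ones by 0.709 points, and without the first 30 min library the lost regions exceeded them by 2.86. Away from promoters, the median distance to a TSS was 10500 bp in gained, 8690 bp in lost and 8418 bp in kept regions, and 3.78%, 3.68% and 3.14% of the classes lay beyond 50 kb.

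The 10 gained regions with the highest mean rank lay mostly in introns or between genes. The first, chr11:97728134-97729142 in an intron of Pip4k2b, a phosphoinositide kinase gene, had folds of 9.33 and 9.09 in the 30 min libraries and its summit was 1847 bp from the TSS. The region at chr16:96458855-96459759, in an intron of Igsf5 and 8371 bp from the TSS of the calmodulin regulator gene Pcp4, reached 6.78 and 8.72. The region at chr1:162043681-162044629, inside the dynamin gene Dnm3, reached 7.74 and 6.85. All these values lay above the class medians in both libraries. A region at chr6:145089684-145090921, 14194 bp from Bcat1, which encodes a branched-chain aminotransferase, had folds of 6.43 and 9.39. A region at chr9:116337994-116338484, in an intron of D730003K21Rik and 163029 bp from the TSS of Tgfbr2, a TGF-beta receptor gene, had folds of 7.35 and 6.97. The region at chr15:97720535-97721876, 303 bp from the TSS of the endoribonuclease gene Endou, had folds of 7.35 and 6.96 and was the nearest of the 10 to a protein-coding TSS. The remaining 4 had folds of 6.19 to 7.91. Of those, 3 were nearest to the TSS of Gpat3 (a glycerol-3-phosphate acyltransferase gene), Sp4 (a zinc finger factor gene) and Cdk5r1 (an activator of CDK5), and the last was on chromosome 18. The last named region had a mean percentile of 86.3 and the next one, which was not named, had 85.8. All 10 were called in the 4 later Ikaros lists at 1 h and 2 h and overlapped H3K27ac peaks in all 8 H3K27ac libraries. CHD4 peaks overlapped 2 of the 10 in both 0 h CHD4 lists (the Bcat1 and Gpat3 regions) and 7 of the 10 in both 30 min CHD4 lists. In both 2 h CHD4 lists, only the Bcat1, Endou and Sp4 regions were called. Of the whole gained class, CHD4 peaks overlapped 17.7% and 41.2% at 0 h and 41.6% and 35.9% at 30 min. The first 0 h CHD4 list was the shortest, with 2488 peaks.

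The 5 lost regions with the highest rank were near the top of their lists. The first, chr4:145367033-145367954, 52340 bp from Tnfrsf8, the gene of the receptor CD30, had folds of 23.9 and 36.2 in the 0 h libraries and no peak in either 30 min library. The region at chr1:152461611-152462520, in an intron of the galactosyltransferase gene Colgalt2, had folds of 17.2 and 21.7. The region at chr10:60273312-60274072, 4067 bp from Psap, the gene of the lysosomal protein prosaposin, had 16.4 and 19.9. All these values lay above the 99th percentile of their list. Another lay in a UTR of Ikbke, an inhibitor of kappaB kinase gene (14.98 and 21.7), and the last in an intron of Ccdc138 (14.2 and 21.0). In the later Ikaros lists these 5 were called again in 1, 2, 1, 3 and 0 of the 4 lists. The last named region had a mean percentile of 99.0 and the next one 98.9.

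The 10 kept regions with the highest rank were recalled in all 4 later Ikaros lists. The array in Snx29, a sorting nexin gene (chr16:11685322-11688523), had folds of 26.0 and 40.4 at 0 h and 13.8 and 18.1 at 30 min. The region 788 bp from Dusp2, a MAP kinase phosphatase gene (chr2:127334482-127336099), had 16.8 and 23.9 at 0 h and 20.9 and 14.4 at 30 min. The region 181 bp from Pa2g4, a proliferation-associated gene (chr10:128565766-128566748), had the highest fold of both 0 h lists, 43.7 and 45.9, and folds of 17.3 and 9.64 at 30 min. The highest folds were lower in the 30 min lists, and by rank among kept regions the normal score changed by -0.13 (SE 0.64, limma adjusted p = 0.946) at Snx29 and by -1.13 (SE 0.62, limma adjusted p = 0.416) at Pa2g4. The others included the promoters of Chmp5, an ESCRT-III subunit gene, and P4hb, which encodes a protein disulfide isomerase, a region near Rcc2 and introns of Siae and Tiam1. Their folds ranged from 16.1 to 23.2 at 0 h and from 9.57 to 15.3 at 30 min, apart from 2 regions on chromosome 18 with 16.6 to 23.7 and 10.1 to 14.0. The Snx29 and Tiam1 regions overlapped no H3K27ac peak in any of the 8 libraries, although CHD4 peaks overlapped both of them in both 30 min lists. Of the 10, 6 overlapped CHD4 peaks in both 0 h lists. The last named region and the next both had a mean percentile of 99.0.

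Whether kept regions changed rank was tested with limma on normal scores of the fold rank among the 2546 kept regions. At a Benjamini-Hochberg adjusted p under 0.05, 0 of 2546 regions (0.0%) were called, and 384 (15.1%) had an unadjusted p under 0.05. With quantile-normalised log2 fold in place of ranks, limma called 2 regions, both lower at 30 min. Among the regions with the smallest p and a higher score at 30 min, one 13508 bp from Il12a, the gene of an IL-12 subunit, had folds of 2.61 and 3.36 at 0 h and 8.48 and 6.36 at 30 min (limma adjusted p = 0.124). A region 7155 bp from Zfp36l2, which encodes an mRNA decay factor, had 3.17 and 4.69 at 0 h and 10.7 and 8.08 at 30 min (limma adjusted p = 0.124). The values did not overlap between the groups at either region, but choosing by the smallest p favours such a separation, and neither region was called. The other 3 were in Lcp1, which encodes an actin-bundling protein, near Zfp619 and in the hexokinase gene Hk1. With a lower score at 30 min, a region whose nearest TSS is that of Anapc15-ps (chr10:95707546-95709061) had folds of 33.4 and 25.3 at 0 h and 4.88 and 3.82 at 30 min (limma adjusted p = 0.0862). A region in an intron of the stannin gene Snn had 23.5 and 25.04 at 0 h and 5.93 and 3.63 at 30 min (limma adjusted p = 0.124). The remaining 3 lay in Samd4, 6269 bp from the nuclear receptor gene Nr4a1, and nearest to Chchd3. The scores of kept regions correlated at r = 0.64 between the 0 h libraries, 0.40 between the 30 min libraries and 0.26 to 0.34 across time, over regions that share their libraries.

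The density of Ikaros core words was lower at gained than at kept summits. Words were counted within 50 bp of each summit and the density in flanks 400 to 500 bp away was subtracted. In the first and second 30 min library, gained summits held 0.914 and 0.729 words per 100 bp above the flanks, and kept summits 1.36 and 1.26. The difference was -0.489 ± 0.0609 words per 100 bp (SD, n = 2), with both libraries on the same side, and an exact sign-flip test over 2 values cannot give a p below 0.5. In the 0 h libraries, lost summits held 2.02 and 2.08 and kept summits 1.79 and 1.89, so that the lost class was the richest in core words. For control words of similar composition (GAGA and GAGG, on either strand), the gained minus kept difference was -0.0659. The same kept regions also had more core words under their 0 h summits than under their 30 min summits, in all 4 comparisons of libraries. At 2112 kept regions with 1 peak in every list, summits lay 47 bp apart at the median between the 0 h libraries, 91 bp apart between the 30 min libraries and 65 to 94 bp apart across time.

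**Figure D3:**
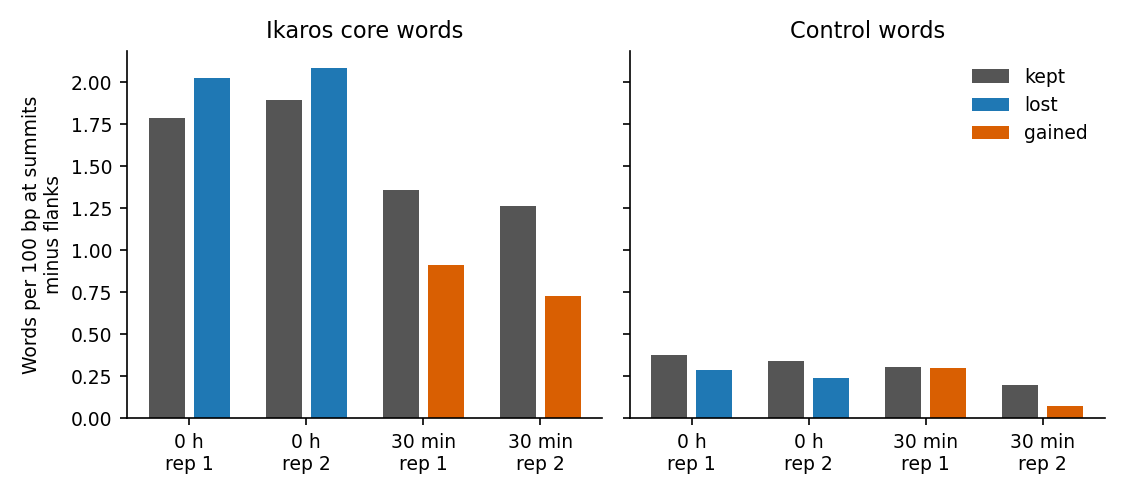
Core words (left) and control words (right) per 100 bp within 50 bp of the summit after subtraction of the flanks (y axis), for kept, lost and gained peaks in the 4 Ikaros libraries (x axis). Bars are means over the summits of a class in 1 library. Lost bars stand above kept bars at 0 h (2.02 and 2.08), gained bars stand below them at 30 min (0.914 and 0.729), and all control bars stay under 0.4.

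The lower density at 30 min was not confined to these classes. With the 5373 peaks of smallest p taken from each list, the density above the flanks was 2.03 and 2.16 at 0 h, 1.37 and 1.05 at 30 min, 1.33 and 1.15 at 1 h and 0.914 and 1.13 at 2 h. Every induced library lay below both 0 h libraries. The 0 h libraries were also the deepest of the Ikaros libraries, and the part of depth in this difference was not tested.

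Longer motifs followed the classes unevenly. The window within 50 bp of 1 summit per region was searched on both strands, with a window of the same length 400 bp from the summit as background. The Ikaros-type word TGGGAA was in 11.0% of gained, 16.3% of kept and 23.2% of lost windows, and in 17.1% of windows over all 14680 regions. The backgrounds for it were 7.17%, 10.1%, 9.82% and 8.93%. AGGAAG, an ETS-type word that contains a core word, was in 23.3% of gained, 27.5% of kept and 33.8% of lost windows, and in 25.9% over all regions (backgrounds of 11.0%, 14.2%, 13.9% and 12.6%). CCCNNGGGA, an EBF-type word that also holds a core word, was in 7.57%, 10.4% and 12.3%, and in 8.19% over all regions (backgrounds of 1.195%, 2.396%, 1.81% and 2.00%). Each of these words was least frequent in gained and most frequent in lost windows. The E-box CAGGTG ran in another order, at 11.95% of gained, 8.37% of kept, 7.94% of lost and 8.45% of all windows, over backgrounds of 7.17%, 7.502%, 8.09% and 7.40%. CAGCTG was in 11.95%, 11.9%, 12.8% and 10.3%, over backgrounds of 2.99%, 5.30%, 4.33% and 4.73%. GGGCGG, the core of the GC box, was in 4.38% of gained, 11.0% of kept, 7.36% of lost and 10.3% of all windows (backgrounds of 3.98%, 7.11%, 5.49% and 6.98%). TGTGGTT, a RUNX-type word, was in 5.18%, 5.26%, 6.498% and 4.75% (backgrounds of 2.79%, 2.32%, 2.31% and 2.32%), and TGANTCA and CCAAT showed no excess over their flanks in gained regions (2.79% against 2.99%, and 9.16% against 12.4%). Gained windows were also poorer in G and C, at 52.9% against 56.5% in kept and 55.6% in lost windows, as were their flanks (46.8% against 50.5% and 49.7%).

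Gained regions were recalled in later Ikaros libraries, which the rule did not use. In the 1 h libraries 81.7% and 90.8% of the gained regions overlapped an Ikaros peak, and in the 2 h libraries 82.1% and 88.8% did. Regions called in only 1 of the 30 min libraries and at neither 0 h overlapped in 47.8%, 57.3%, 51.2% and 53.6%. The difference was 33.4 ± 1.87 percentage points (SD, n = 4 libraries) and positive in 4 of 4. Regions called once were also narrower (331 bp at the median, against 613.5 bp) and lower in rank (percentiles 30.5 and 29.2, against 45.4 and 42.1), so this difference follows in part from how the classes were drawn and is given without a test. Kept regions overlapped in 94.2 to 97.0%. Lost regions overlapped in 43.2% and 47.8% at 1 h and in 35.6% and 41.5% at 2 h. Over all 4 later lists, 62.5% of gained regions were called in every list and 0.797% in none, against 17.8% and 33.1% of lost regions.

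**Figure D4:**
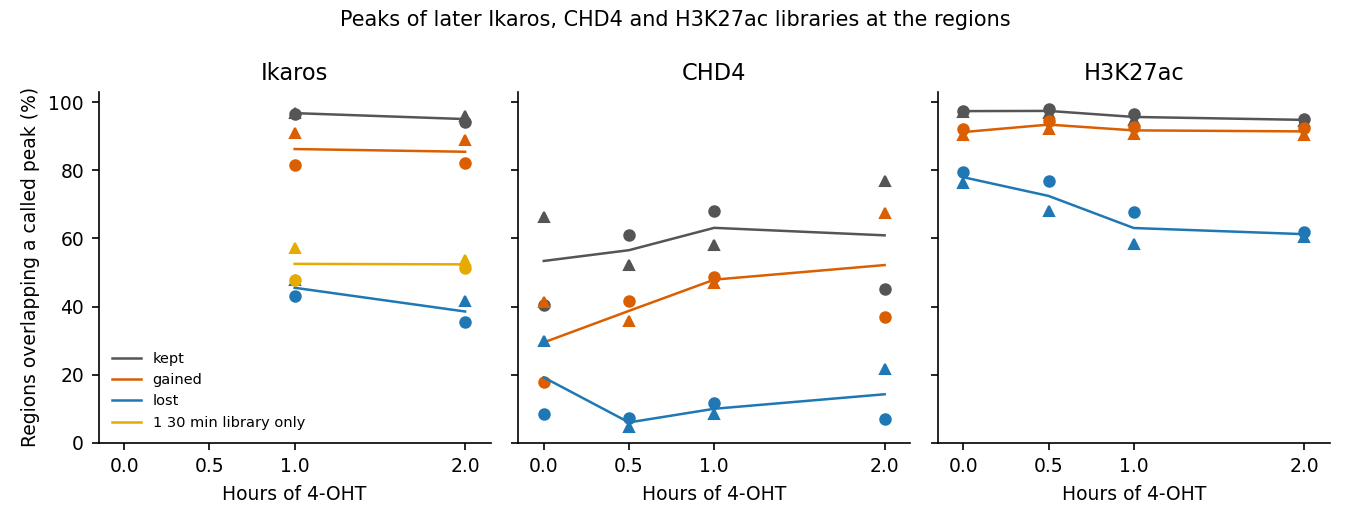
Percentage of regions that overlap a called peak (y axis) against hours of 4-OHT (x axis) for Ikaros at 1 h and 2 h, and for CHD4 and H3K27ac at all times. Circles are first and triangles second replicates, and lines join means of 2 libraries. Gained regions lie between 81.7% and 90.8% in the Ikaros panel, approach the kept regions in the CHD4 panel, and lost regions decline in the H3K27ac panel from 79.6% and 76.3% to 62.0% and 60.5%.

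CHD4 peaks were less frequent at gained than at kept regions. For the classes as first defined, the gap was narrower at later times. At 0 h, CHD4 peaks overlapped 17.7% and 41.2% of gained and 40.5% and 66.3% of kept regions. At 30 min, they overlapped 41.6% and 35.9% of gained and 61.0% and 52.2% of kept regions. At 1 h the gained regions stood at 48.8% and 47.0%, and at 2 h at 36.9% and 67.5%. The share itself moved with the length of the CHD4 lists, which ran from 2488 peaks in the first 0 h library to 9593 in the second 2 h library, so gained and kept regions were compared within each library. The gained minus kept difference averaged -16.4 ± 6.31 percentage points over the 8 CHD4 libraries (SD) and was negative in 8 of 8 (exact two-sided sign-flip test, p = 0.00781, the smallest that 8 libraries allow, adjusted over 4 comparisons 0.00781). It was -22.7 and -25.1 points at 0 h, -19.3 and -16.3 at 30 min, -19.3 and -11.2 at 1 h and -8.20 and -9.26 at 2 h. Both 0 h libraries thus had the widest gap and both 2 h libraries the narrowest. Rebuilding the classes without the first or second 30 min Ikaros library moved the mean to -26.9 and -25.0 points. Kept regions were wider than gained ones and higher in rank, so the sign of the gap follows in part from how the classes were drawn. With all summits extended by 150 bp in place of whole peaks, the mean was -12.4 points. The gap against time gave Spearman's rho = 0.93 (exact permutation test, p = 0.00317 and, over 4 trends, adjusted 0.0127) and Pearson r = 0.91 (exact permutation p = 0.00159, adjusted 0.00635), and r = 0.79 without the 2 h libraries. The gained class was drawn from Ikaros calls over input at 0 h and 30 min. Whether the CHD4 libraries of those times used the same input is not given in the sources used here. The trend is thus not taken as independent of the class rule. When the Ikaros classes were rebuilt without 1 library, the exact permutation adjusted p of rho was 0.0698 without the second 0 h library, 0.110 without the first 30 min library and 0.204 without the second. The Pearson call was lost as well without either 30 min library, with r = 0.67 (exact permutation, adjusted p = 0.159) without the first and r = 0.68 (adjusted 0.121) without the second. With the 2 h libraries also left out, r was 0.282 and 0.296.

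At lost regions, CHD4 peaks overlapped 8.45% and 30.0% at 0 h and 7.22% and 4.77% at 30 min. The lost minus kept difference averaged -46.1 ± 9.40 points and was negative in 8 of 8 libraries (exact sign-flip test, p = 0.00781, adjusted 0.00781). Lost regions were narrower than kept ones and lower in rank, so its sign follows in part from how the classes were drawn. With all summits extended by 150 bp, the mean was -38.5 points. The relation of the difference with time did not pass the test (rho = -0.59, exact permutation p = 0.153, adjusted 0.153, and r = -0.39, p = 0.323, adjusted 0.323, or r = -0.87 without the 2 h libraries), and its sign turned to rho = 0.24 with CHD4 lists of equal size. Counted per region, 32 gained regions (6.37%) overlapped CHD4 peaks in both 30 min and neither 0 h CHD4 list, and 11 (2.19%) the reverse. The same counts were 90 (3.53%) and 76 (2.99%) among kept regions and 5 (0.361%) and 59 (4.26%) among lost regions. In these lists new CHD4 calls outnumbered vanished ones at gained regions, and the reverse held at lost ones, a contrast that was not tested. In no CHD4 list at all were 16.3% of gained, 5.50% of kept and 52.3% of lost regions. At 30 min CHD4 was called at 47.0% and 42.1% of distal and at 33.3% and 26.3% of promoter regions of the gained class, but at 37.2% and 36.4%, respectively, in the first 2 h library. In the lost class the order turned, from 10.5% and 33.8% of distal against 4.93% and 23.3% of promoter regions at 0 h to 9.57% and 7.06% against 14.99% and 10.8% at 1 h.

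H3K27ac was present at most gained regions before induction. H3K27ac peaks overlapped 92.2% and 90.2% of gained regions at 0 h, 94.6% and 92.2% at 30 min and 90.4 to 92.8% at 1 h and 2 h, and 449 of 502 regions were marked in all 4 libraries of 0 h and 30 min. The gained minus kept difference was -4.38 ± 1.31 points and negative in 8 of 8 libraries (exact sign-flip test, p = 0.00781, adjusted 0.00781). It was -13.2 and -8.78 when the classes were rebuilt without the first and second 30 min library, -2.48 without the second 0 h library, -2.11 with Ikaros lists of equal size and -2.71 with a -log10 q of at least 3. With summits extended by 150 bp it was -4.11. Here too the kept class was the wider and higher in rank, so the sign follows in part from how the classes were drawn. No trend of this gap passed the test (rho = 0.73, exact permutation p = 0.0548, adjusted 0.0730, and r = 0.71, p = 0.0401, adjusted 0.0534, or r = 0.76 without the 2 h libraries). At kept regions, 97.6% and 97.2% overlapped a peak at 0 h and 95.1% and 94.5% at 2 h.

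Lost regions carried the mark less often and the share fell. It was 79.6% and 76.3% at 0 h, 77.0% and 68.0% at 30 min, 67.8% and 58.3% at 1 h and 62.0% and 60.5% at 2 h. The 0 h and 30 min values overlapped, and all 1 h and 2 h values lay below both 0 h values. A fall was also seen in regions called in only 1 of the 0 h Ikaros lists and at neither 30 min. Their share was 75.5% and 72.2% at 0 h and 65.4% and 63.5% at 2 h. At 0 h, H3K27ac peaks at lost regions had median fold percentiles of 63.8 and 58.9, against 85.0 and 82.9 at kept regions. The part of these lower ranks in the fall was not tested. The lost minus kept difference averaged -27.6 ± 6.90 points over 8 libraries and was negative in all 8 (exact sign-flip test, p = 0.00781, adjusted 0.00781), and it was -14.4 with the classes rebuilt without the first 30 min library. With summits extended by 150 bp it was -23.9. Its sign, too, follows in part from how the classes were drawn. The 0 h libraries showed -17.9 and -20.9 points, the 30 min ones -21.0 and -28.9, the 1 h ones -28.8 and -36.4 and the 2 h ones -33.1 and -34.0. For the classes as first defined, the gap widened with time (rho = -0.83, exact permutation test, p = 0.0198, adjusted 0.0397, and r = -0.81, p = 0.0179, adjusted 0.0357, or r = -0.85 without the 2 h libraries). Whether the H3K27ac and Ikaros libraries of a time used the same input is not given in the sources used here. This trend is thus not taken as independent of the class rule. The call on rho was lost when the classes were rebuilt without any 1 of the 4 Ikaros libraries (exact permutation, adjusted p of 0.0698 without either 0 h library and 0.0794 without either 30 min library), with rho between -0.78 and -0.83, and also with Ikaros lists of equal size (rho = -0.78, adjusted 0.0698). The Pearson call was lost without the first (exact permutation, adjusted p = 0.0778) or second (0.0651) 30 min library. The decline was seen at distal lost regions, 74.3% and 69.4% at 0 h against 51.3% and 49.1% at 2 h, and was smaller at lost promoters, 89.0% and 88.4% against 80.7% and 80.3%, a difference that was not tested. From both 0 h to neither 2 h list, 145 lost regions (10.5%) lost H3K27ac, compared with 2 gained (0.398%) and 40 kept regions (1.57%).

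Genes of known function near the regions were counted from lists of pre-B and growth genes, with regions within 20 kb of a TSS. Over all 21924 protein-coding genes, 570 had a gained region that near (2.5999%), 1572 a lost one (7.17%), 2730 a kept one (12.5%) and 9162 any merged region (41.8%). Any merged region was near 69.2 to 100% of the genes of each list. Of the 15 cell cycle genes, 5 (33.3%) had a gained, 0 a lost and 6 a kept region. A gained region overlapped the TSS of Ccnd1, which encodes cyclin D1 (chr7:144937762-144938412), with folds of 4.58 and 4.02. A gained region 478 bp from a TSS of Ccnd2, the cyclin D2 gene (chr6:127152671-127152976), had folds of 5.65 and 3.35. A gained region at the TSS of Cdk1, the mitotic kinase gene (chr10:69352692-69353146), had folds of 5.03 and 4.24. All 3 were among the moderate peaks, far below the top gained fold of 9.39. A gained region 851 bp from a TSS of Myc, the growth-promoting transcription factor gene (chr15:61983334-61984540), had folds of 7.83 and 3.43, beside a kept region at the Myc TSS with 7.33 and 9.09 at 0 h and 7.06 and 6.37 at 30 min. The last was 7646 bp from Cdkn2c, the gene of a CDK inhibitor, with 2.96 and 3.98. The regions at Cdk1, Cdkn2c and Myc were called in all 4 later Ikaros lists, that at Ccnd2 in 3 and that at Ccnd1 in 2. All but the Ccnd1 region overlapped H3K27ac peaks in all 8 libraries.

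Surrogate light chain and pre-B cell receptor genes mostly had kept regions. Of the 11 genes, 7 (63.6%) had a kept, 1 (9.09%) a gained and 2 (18.2%) a lost region. The neighbours Igll1 and Vpreb1 share the same 3 kept regions and are both counted. A kept region at the TSS of Igll1, the lambda5 gene (chr16:16863692-16865925), had folds of 7.25 and 6.16 at 0 h and 12.7 and 6.96 at 30 min. A kept region at the TSS of its partner Vpreb1 (chr16:16870371-16871986) had 2.61 and 5.19 at 0 h and 5.75 and 4.64 at 30 min. At the TSS of Cd79a, which encodes a signalling chain of the receptor (chr7:24896690-24897830), the folds were 4.53 and 7.36 at 0 h and 9.42 and 6.97 at 30 min. The 0 h and 30 min values overlapped at all 3 TSS regions. They did not at another kept region near Igll1 and Vpreb1 (chr16:16856035-16857163), with 8.40 and 8.66 at 0 h and 4.78 and 6.37 at 30 min. A kept region 12499 bp from Cd79a was also lower, with 15.8 and 28.0 at 0 h and 11.3 and 8.09 at 30 min. One 5590 bp from Cd79b went the other way, with 7.11 and 7.97 at 0 h and 9.15 and 9.72 at 30 min. The gained region was 15470 bp from Btk, a kinase gene (3.96 and 5.37), and a lost region was 6996 bp from Lyn, also a kinase gene. Of the 3 recombination genes, Dntt, which encodes terminal transferase, and Rag1 had a lost region each, 0 had a gained one and 1 a kept one. The kept region was also near Dntt (chr19:41038880-41039673) and was called in all 4 later Ikaros lists. That near Rag1 (chr2:101650726-101651233) had folds of 7.76 and 9.95 at 0 h and was called again in 2 of the 4 later lists.

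Among 18 B-lineage transcription factor genes, 12 (66.7%) had a kept, 2 (11.1%) a gained and 4 (22.2%) a lost region. The gained regions were 18497 bp from a TSS of Ebf1, an early B cell factor gene (chr11:44893058-44893641, folds of 6.00 and 5.13), and 4071 bp from Lef1 (4.31 and 5.03). The Ebf1 region was called in all 4 later Ikaros lists and in all 8 CHD4 lists. The Lef1 region overlapped no CHD4 peak at 0 h or 30 min and did in 1 list each at 1 h and 2 h. Lost regions were near Ebf1, Pax5, Tcf3 and Gfi1b, with folds of 3.88 to 7.101 at 0 h. Kept regions were at or near Ikzf1 itself (2370 bp from a TSS, 7.71 and 6.24 at 0 h, 7.28 and 7.04 at 30 min), Ikzf3, Runx1 and Spi1. In the IL-7 receptor and STAT5 list, 5 of 13 genes (38.5%) had a lost region (Jak1, Stat5a, Stat5b, Socs1 and Socs3), 1 (7.69%) a gained one and 4 (30.8%) a kept one. Stat5a and Stat5b, neighbouring genes of a transcription factor pair, share 1 lost region (chr11:100851016-100851512, folds of 3.45 and 3.70 at 0 h), which was called in all 4 later Ikaros lists. Of the 10 adhesion genes, 0 had a gained, 3 (30.0%) a lost (Itgb7 and Cd44 among them) and 4 a kept region. Of the 13 NuRD genes, 2 (15.4%) had a gained region, 4647 bp from Chd4 itself (3.92 and 4.02) and 17087 bp from Mta1 (5.38 and 4.69), 2 (15.4%) a lost one and 3 (23.1%) a kept one. The Chd4 region overlapped CHD4 peaks in neither 0 h list and both 30 min lists. A kept region beside it (chr6:125089766-125090443) had the same CHD4 calls at these times. The kept region on its other side (chr6:125092015-125092909) was in 1 of the 0 h and both 30 min lists.

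A last list holds 17 genes named as quickly repressed in the text of the study, which defined that class by nascent RNA and names several of its genes for enhancers that lost acetylation in this line, so the counts are not independent of these samples. Of these, 4 (23.5%) had a gained region (Ccnd1, Ccnd2, Myc and Gins2), 3 (17.6%) a lost and 12 (70.6%) a kept one. The gained region 13832 bp from Gins2, a DNA replication gene (chr8:120571651-120572376), had folds of 6.15 and 4.47 and was called in all 4 later Ikaros and all 8 CHD4 lists. CHD4 was called less often at the others. The Ccnd1 region overlapped no CHD4 peak at any time, and the Myc region only in 1 of the 1 h lists. The Ccnd2 region did in 1 of the 2 lists at each time.

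A few regions of tandem repeats were singled out after their values were seen, by a -log10 p above 300 in both 30 min lists. There were 8 such regions, with modest folds over very deep pileups. Of these, 5 lay between chr9:3000046 and chr9:3038261, 1 at chr14:19415752-19419590, 1 at chr2:98666624-98667189 and 1 at chr9:35305273-35305531. The first 6 were kept and the last 2 gained. From 83.7 to 100% of their bases were soft-masked as repeats, and in the 6 kept ones 55.2 to 77.5% of bases equalled the base 234 bp further on, the best shift between 50 and 300 bp. A period of 234 bp is that of the mouse major satellite, the repeat of pericentromeric heterochromatin. The part of the region with the highest 30 min fold is printed to show the repeat unit, with core words in capitals.
Kept, repeat unit at the summit, chr9:3009470-3009703: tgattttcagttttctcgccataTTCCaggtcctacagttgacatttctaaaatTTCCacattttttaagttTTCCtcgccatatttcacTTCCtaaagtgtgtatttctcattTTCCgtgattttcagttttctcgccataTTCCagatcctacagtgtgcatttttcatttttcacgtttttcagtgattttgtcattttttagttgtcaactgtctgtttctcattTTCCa

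That region (chr9:3009121-3011092) had folds of 1.89 and 1.80 at 0 h and 3.43 and 3.53 at 30 min. The mean was 1.63 higher at 30 min, going from 1.85 ± 0.0613 to 3.48 ± 0.0715 (SD, n = 2), and stayed at 3.603 and 3.49 at 1 h and 3.85 and 3.71 at 2 h. Its -log10 p was 609 and 505 at 0 h and 2518 and 2455 at 30 min. In each of the 6 kept repeat regions both 30 min folds lay above both 0 h folds, by 0.254 to 1.63 on average. The 30 min lists themselves picked these regions, so that order is a description and was not tested. The gained repeat on chromosome 2 had folds of 2.01 and 1.98 and -log10 p of 5069 and 4837 at 30 min, the highest of the whole comparison, was called in all 4 later Ikaros lists and in neither 0 h list. At chr9:35305273-35305531 the folds were 1.41 and 1.53. How multiply mapped reads were treated is not given in the sources used here, and its part in these values was not tested.

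CHD4 folds were higher after induction at the 6 kept repeats. The repeats were chosen on Ikaros values over input at 30 min, and whether the Ikaros and CHD4 libraries of a time were set against the same input is not given in the sources used here, so the CHD4 folds at 30 min are not taken as independent of the choice. The gained repeat on chromosome 2 had a CHD4 peak in neither 0 h list, both 30 min lists, 1 of the 1 h lists and both 2 h lists, and the one at chr9:35305273-35305531 had none in any of the 8. The highest CHD4 fold in the chr9:3009121-3011092 region was 1.26 and 1.21 at 0 h, with a mean of 1.23 ± 0.0401 (SD, n = 2). The means of the 30 min, 1 h and 2 h libraries were 1.51 ± 0.0399, 1.64 ± 0.0890 and 1.66 ± 0.0722. In all 6 kept repeat regions both CHD4 folds at 30 min exceeded both at 0 h, with mean differences of 0.245 to 0.304, given as a description, though the broad CHD4 peaks span several of the chromosome 9 regions and are not separate evidence for each. No H3K27ac peak of any of the 8 libraries overlapped any of the 8 repeat regions. Among all gained regions, 7.17% had summit windows that were mostly soft-masked, against 3.73% of kept and 3.61% of lost regions.

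**Figure D5:**
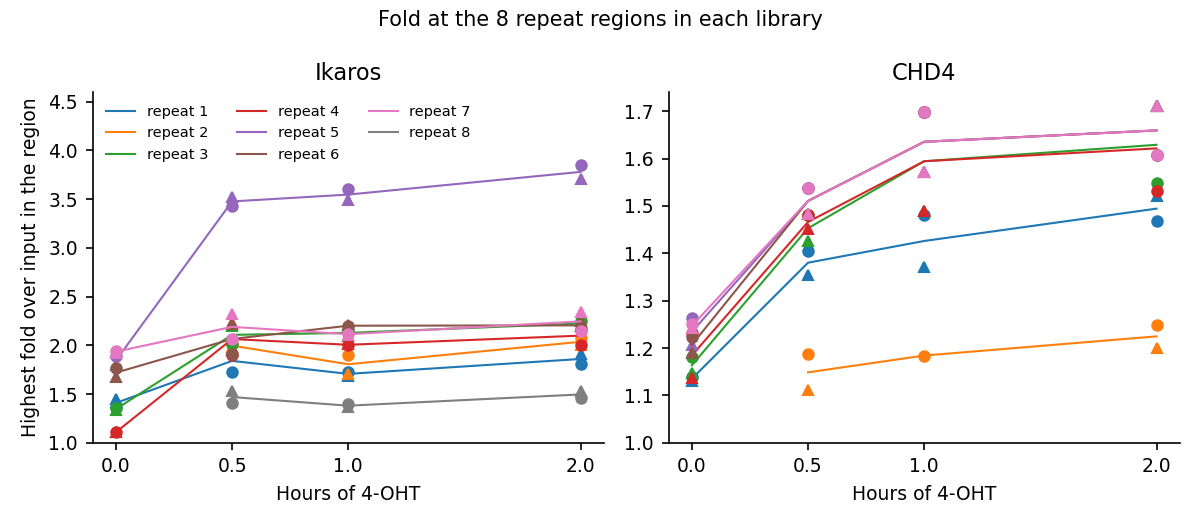
Highest fold over input of Ikaros peaks (left) and CHD4 peaks (right) in each of the 8 repeat regions (y axis, starting at 1) against hours of 4-OHT (x axis). Circles are first and triangles second replicates, lines join means, and a missing point means no peak. At 30 min the Ikaros folds of the region with the steepest line stand at 3.43 and 3.53, above 1.89 and 1.80 at 0 h, and the CHD4 folds are higher at 30 min in the 6 kept regions, from at most 1.26 at 0 h to at most 1.54 at 30 min.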

How the data were processed

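Peak lists of HA-Ikaros, CHD4 and H3K27ac ChIP-seq in B3 cells were used as deposited (24 lists, coordinates in mm10), and 8 input libraries had no list. Per the study's methods and the submitters' processing notes, the authors fixed cells with DSG and formaldehyde, sequenced paired ends, aligned with Bowtie2 2.4.2, marked duplicates with Picard 2.23.7 and called peaks with MACS2 2.2.7.1 per library, broad for CHD4. A blacklist is stated for coverage tracks. Its use on the peak lists, like the calling parameters at 30 min, is not given in the sources used here. The deposited columns hold a score (not interpreted), the fold over background as a ratio, −log10 p- and q-values and the summit offset.

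Peaks were joined by an overlap of 1 bp or adjacency, and the members and gene lists were chosen with earlier results of these data known. Fold was ranked within lists. Coverage was recovered from the folds and p-values of all but the most significant peaks, which follow from whole pileups, and this step was tested on simulated lists. TSS positions came from GENCODE M21 and sequence from GRCm38, the build of mm10. Classes were compared by exact permutation or sign-flip tests over libraries, with Benjamini-Hochberg adjustment over the 4 share comparisons and over the 4 trends, and kept regions with limma 3.58.1 in R 4.3.3, tested on simulated data. Regions named in the text were the 10 gained, 5 lost and 10 kept regions with the highest mean percentile of fold, the 5 kept regions of smallest limma p in each direction, and regions within 20 kb of listed genes. The repeat regions were chosen after their values were seen. Alternatives covered stricter q-values and fold, lists of equal size, summit windows, 3 kb promoters, control words and each library left out. Python 3.11.15 was used for all other steps. Some listed genes with a lost region are not reported here by name.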

Additional observations from a re-analysis of the deposited data

How the results depend on the processing

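The 0 h Ikaros libraries were deeper than the 30 min ones, and a class needs a call in 2 libraries. Rebuilding the classes without 1 Ikaros library, which loosens the rule by construction, gave 694 to 2910 gained, 1697 to 3387 lost and 2713 to 4131 kept regions. The gained count was 2910 without the second 30 min library, 1426 without the first and 1028 without the second 0 h library, and the lost count was 3387 and 2389 without the first and second 0 h library and 3010 without the first 30 min library. The gained minus kept promoter difference then ran from -13.0 to 0.709 points and the lost minus kept difference from -15.8 to 2.86, the upper ends reversed, and the peak number difference from -3301.5 to 506.5, also reversed at its upper end. Leaving out libraries of any target moved the CHD4 difference between -26.9 and -11.6 points (gained) and between -47.2 and -32.0 (lost), the H3K27ac difference between -13.2 and -2.48 (gained) and between -30.0 and -14.4 (lost), the CHD4 trend at gained regions between rho 0.59 and 1.0, and the H3K27ac trend at lost regions between -1.0 and -0.78. With 1 replicate of CHD4 or H3K27ac, 4 libraries allow no sign-flip p below 0.125. The core word difference ran from -0.714 to -0.352.

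With Ikaros lists of equal size there were 645 gained, 1019 lost and 1663 kept regions, the lost minus kept promoter difference was -14.9, the H3K27ac trend at lost regions was rho = -0.78 (exact permutation, adjusted p = 0.0698) and the core word difference was -0.586. With summits extended by 150 bp, the last was -0.750 and the promoter difference of lost regions -6.69. With control words the core word difference was -0.0659. With CHD4 lists of equal size the CHD4 trend at lost regions reversed to rho = 0.24, and other CHD4 and H3K27ac calls kept their side of the threshold. Recall of gained regions exceeded that of regions in 1 30 min library by 27.8 to 34.8 points under all alternatives that gave a value, and it is undefined without a 30 min library. The cause was not tested for any of these. In all, 110 alternative values were unchanged in direction, call or spread, and 20 were weaker, 26 moved and 4 reversed.

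The limma count of kept regions past the threshold was 0, and 0 to 1 without 1 library, 2 with quantile-normalised log2 fold, 1 with a single peak in each library, 1 with lists of equal size and 1 with the replicate block. The deviations of same-numbered libraries correlated at r = 0.065, a single value since 2 libraries per group deviate by opposite amounts. The labels name no shared source either, so no pairing was assumed, and the value does not show that the samples are unpaired. With the replicate block, the peak number difference stayed at -1397.5 (exact sign-flip over 2 pairs, p = 1.0).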
